A study of Mus musculus with 10 samples.

Results

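The RNA that a home-made IMP2 antibody brought down from muscle labelled as IMP2 null was compared with the total RNA of muscle carrying the same label. The comparison rests on 2 immunoprecipitation (IP) libraries and 3 total RNA libraries, 5 of the 10 libraries in the series, and takes in every gene row of their count files. All animals were male C57BL/6 mice, 6 weeks of age, kept for 2 weeks on a high-fat diet before skeletal muscle was taken. The knockout (KO) groups carry the label IMP2 null, while the series text speaks of a muscle-specific knockout. The allele and any Cre driver are not given in the sources used here. The other 5 libraries (2 IP, 3 total) came from wild-type (WT) mice of the same sex, strain, age and diet. They entered the same fit, gave the expression level used to sort mRNAs, and serve below as a comparison.

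IMP2 is an RNA-binding protein, encoded by Igf2bp2, that attaches to mRNAs such as Igf2 and affects their stability, location and translation. In an RNA immunoprecipitation an antibody pulls a protein out of a tissue lysate together with the RNA attached to it. The same procedure on tissue that lacks the protein gives the RNA recovered without the target, the background of the experiment. Skeletal muscle RNA is dominated by mRNAs of the contractile apparatus, of energy metabolism and of calcium handling, and it also holds RNA of vessels, nerve, blood and connective tissue.

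The targeted gene was checked first. Igf2bp2 (chr16:22059009-22163299, minus strand) had 9 and 25 counts in KO IP 1 and 2, and 21, 19 and 21 counts in KO total 1, 2 and 3. In CPM (counts scaled to a common library size, with TMM factors) these were 8.64 and 5.18 in the IP and 2.52, 1.88 and 2.46 in total RNA, against 2.50, 2.85 and 3.34 in the WT total libraries. KO and WT total RNA overlapped, and counts over the whole gene neither support nor contradict the null label while the deleted segment is not given. Both IP libraries lay above the 3 total libraries, with a log2 difference of 1.47 ± 0.60 (SE) that missed the threshold (edgeR quasi-likelihood test with Benjamini-Hochberg adjustment, adjusted p = 0.0695) and passed it under several other settings. These were the library number as a block (1.60, edgeR adjusted p = 0.0490), DESeq2 (adjusted p = 0.0469), and in edgeR the 5 KO libraries alone (0.0234), no filter on low counts (0.0232) and library size alone (0.0275). Of the paralogs with the same domain layout, Igf2bp1 had 0 and 2 counts in the IP and 1, 0 and 0 in total RNA. Igf2bp3 had 0 and 0 counts in the IP and 1, 4 and 4 in total RNA, so neither was tested.

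The KO IP libraries held 917462 and 4037480 gene counts and the KO total libraries 9691580, 10689583 and 10739792, so KO IP 1 sets the precision. A gene with 0 counts may still stand at up to 2.88 CPM in KO IP 1 and 0.622 CPM in KO IP 2 (3 counts per library). In KO total RNA the limits were 0.296 to 0.360 CPM. Such limits and all count intervals cover counting error only. The IP was no poorer in kinds of RNA: at an equal 900000 counts, 13745 and 13923 genes would be detected in the IP and 13382 to 13810 in total RNA. Its 10 most counted genes took 15.6% and 13.1% of counts, against 27.3% to 32.0% in total RNA. KO total 1 carried pancreatic islet mRNAs that KO total 2 and 3 lacked, and 46 counts of Xist against 1 and 0 there, in animals labelled male. Results for Ins2 and for the islet list as a whole are given with and without that library. Nothing in the labels ties the libraries to separate animals, so every p-value reflects only how far these samples vary, which may be technical variation.

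Of 43629 genes in the files 14399 had enough counts to test, and 5251 (36.5%) passed an adjusted p of 0.05 (edgeR quasi-likelihood test with Benjamini-Hochberg adjustment). In the KO IP 2551 genes were higher (17.7%) and 2700 lower (18.8%) than in KO total RNA. Over all genes, 4310 (29.9%) lay higher in both IP libraries than in any total library and 4513 (31.3%) lower, so groups that do not overlap are common here. At least a 2-fold difference was seen for 1831 of the higher and 2037 of the lower genes, and at least a 4-fold difference for 471 and 831. The median log2 difference over all tested genes was 0.03, so values are relative to the typical gene, and the amount of RNA recovered is not in these data. Scaled by library size alone that median became 0.47 and the split 4267 higher and 1439 lower, which raised the higher share of the calls from 48.6% to 74.8%. Without KO IP 2, leaving the shallow library as the only KO IP sample, 934 genes were higher and 1214 lower.

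Among mRNAs at 10 CPM or more, the largest differences upward were 8.11-fold to 11.4-fold, apart from 3 genes with wider errors. Trf, the iron carrier transferrin, stood at 21.1 and 26.9 CPM in the IP and 2.04, 1.19 and 3.29 CPM in total RNA, a log2 difference of 3.51 ± 0.49 (edgeR adjusted p = 0.000130). Ifi44, an interferon-induced gene, stood at 36.5 and 44.3 CPM against 2.52, 5.83 and 2.82 CPM (3.44 ± 0.32, edgeR adjusted p = 1.39e-05). Tmsb10, which encodes the actin-sequestering thymosin beta 10, stood at 45.1 and 51.0 CPM against 4.32, 4.05 and 5.98 CPM (3.34 ± 0.30, edgeR adjusted p = 1.16e-05). In each of these the IP libraries were close to each other and far above all 3 total libraries. Vkorc1 of the vitamin K cycle (3.43 ± 0.34), the beta-globin Hbb-bs (3.42 ± 0.66), the kinase Wnk4 (3.33 ± 0.48), the sperm-head gene Eqtn (3.23 ± 0.58), the mast cell tryptase Tpsb2 (3.21 ± 0.38) and the matrix gene Efemp1 (3.02 ± 0.32) were about as far apart. Ucp1, Apoc1 and Cidea had larger estimates with wide errors and are described with the fat markers.

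The largest differences downward were mRNAs that total RNA held at moderate counts and the IP hardly at all. Vash1, a secreted regulator of vessel growth, had 67, 190 and 113 counts in total RNA and 0 in both IP libraries, which makes it at least 26.8-fold lower in the IP (3 counts over the group as the floor). Zfp507, a zinc finger gene, had 108, 91 and 89 counts in total RNA and 0 and 1 in the IP, a ratio of total to IP of 62.6 with a counting interval of 11.2 to 2483. Prps1l3, Ccdc85c and Cox11 also had 1 count each over the IP, with ratios of 70.9, 60.9 and 60.3, and Ccdc85c lost its call without KO IP 2 (edgeR adjusted p = 0.0687). These genes were at 0 or 1 count in both IP libraries, and single counts give only a loose size. Sema4d, a membrane semaphorin, gives a firmer size: 3.84 and 3.11 CPM in the IP against 82.2, 77.3 and 81.2 CPM, 24.4-fold lower (log2 -4.61 ± 0.34, edgeR adjusted p = 6.68e-06). Anxa11, an RNA-granule-tethering annexin, stood at 4.80 and 1.66 CPM against 75.7, 67.6 and 66.2 CPM (log2 -4.88 ± 0.36, edgeR adjusted p = 6.68e-06). Snw1 of the spliceosome (-4.94 ± 0.39), the selenium enzyme Sephs2 (31.9-fold lower) and the autophagy gene Atg9a (-4.60 ± 0.47) were of the same order.

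By transcript class, the KO IP held somewhat more long non-coding RNA and somewhat less mRNA than KO total RNA. Protein-coding genes took 97.5% and 97.0% of gene counts in KO IP 1 and 2 and 98.6%, 98.2% and 98.1% in KO total 1, 2 and 3, so the 2 groups did not overlap (97.3% ± 0.345, SD, n = 2, against 98.3% ± 0.264, n = 3). Long intergenic non-coding RNAs (lincRNAs) took 1.65% and 2.08% in the IP and 0.892%, 1.21% and 1.26% in total RNA. Their exact 95% binomial intervals, 1.62% to 1.67% in KO IP 1 and 1.26% to 1.27% in KO total 3, are far narrower than the spread between libraries. Antisense RNAs took 0.209% and 0.226% against 0.127%, 0.162% and 0.152%, and other long non-coding RNAs 0.201% and 0.218% against 0.109%, 0.136% and 0.113%. In all 3 classes both IP libraries lay above every KO total library. WT total 1 and 2 also lay below both KO IP libraries. WT total 3 held 0.240% antisense and 0.231% other long non-coding RNA, above both. Its lincRNA share was 1.55% and its mRNA share 97.6%. With 2 libraries against 3 the smallest two-sided p of an exact permutation test is 0.2, so that test could not reach 0.05 for any share, and the shares are given as a description.

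Counts of genes give a more even picture than shares. Of 241 lincRNAs tested, 40 (16.6%) were higher and 27 (11.2%) lower in the IP, with a median log2 difference of 0.23. Of 282 antisense genes, 44 were higher and 42 lower (median 0.19), and of 214 other long non-coding genes 36 were higher and 21 lower (median 0.29). The 13116 protein-coding genes had 2368 higher and 2494 lower, with a median of 0.04. Over all genes the shares were 17.7% higher and 18.8% lower, and the difference between classes was not tested. The 73 loci whose status the annotation still holds open had 21 higher and 6 lower with a median of 0.89, while their share of counts, 0.0242% and 0.0381% against 0.0197% to 0.0243%, overlapped between the groups.

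**Figure D1:**
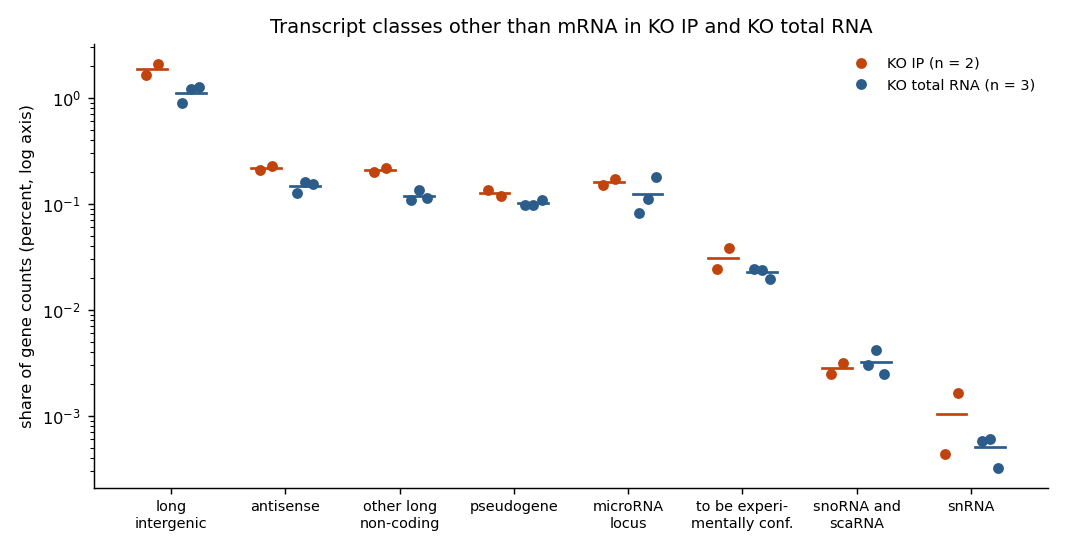
Share of gene counts by transcript class in each KO library, in percent on a log axis, with the 2 IP and 3 total RNA libraries as separate points. The long non-coding classes lie above total RNA in both IP libraries, and microRNA genes and snoRNAs overlap between the groups.

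Pseudogenes had few higher calls. Their share of counts was a little higher in the IP (0.134% and 0.119% against 0.0980% to 0.110%), a difference of 0.0246 percentage points that fell to 0.00143 without the 10 most abundant genes. By gene, of 367 tested 24 were higher and 85 lower, with a median log2 difference of -1.44. A processed pseudogene shares sequence with its parent mRNA, so reads placed on it are uncertain. Reads that aligned to more than 1 place made up at least 36.4% of each IP library and 33.5% to 36.0% of the KO total libraries, and they enter no gene count. Immunoglobulin and T cell receptor segments took 0.0153% and 0.0149% in the IP and 0.0071% to 0.0106% in total RNA, without overlap.

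The lincRNA share leaned on 3 transcripts. H19, an imprinted RNA next to Igf2 that IMP proteins are known to bind, took 0.336% and 0.788% of IP counts and 0.251%, 0.412% and 0.459% of total RNA counts, with KO IP 1 inside the range of total RNA. Its CPM of 2958 and 6593 against 2916, 4352 and 5778 gave a log2 difference of 0.14 ± 0.42 (edgeR adjusted p = 0.826), which turned to -0.08 without KO total 1 and -0.57 without KO IP 2. Neat1, the RNA scaffold of nuclear paraspeckles (chr19:5824708-5845478), stood at 3829 and 3302 CPM in the IP and 1650, 1835 and 880.2 CPM in total RNA (1.29 ± 0.45, edgeR adjusted p = 0.0370). The groups did not overlap, but the call was lost with DESeq2 (adjusted p = 0.109) and, in edgeR, without KO total 1 (0.0618), KO total 3 (0.118), KO IP 1 (0.144) or KO IP 2 (0.133). Gm42418, which lies in a ribosomal RNA repeat, did not differ in CPM (0.11 ± 0.32, edgeR adjusted p = 0.812), a sign that flips to -0.07 without KO total 1. With all 3 left out lincRNAs still took 0.458% and 0.533% of IP counts against 0.303%, 0.334% and 0.415%. In WT total 3 that remainder took 0.550%. Neat1 alone took 0.534% there, against 0.435% and 0.395% in KO IP 1 and 2.

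Nuclear RNAs did not move as 1 group. Of 14 nuclear long non-coding RNAs, 2 were higher (Neat1 and Mirg, a microRNA host of the Dlk1-Dio3 imprinted region) and 4 lower (Malat1, Tug1, Rian and Snhg14), with a median log2 difference of 0.00 (0 higher and 2 lower without KO IP 2). Malat1, a nuclear speckle RNA that neighbours Neat1 on chromosome 19, stood at 199 and 137 CPM in the IP against 687, 499 and 311 CPM (-1.58 ± 0.31, edgeR adjusted p = 0.00142). It was lower in both IP libraries than in any total library, opposite to Neat1. Without KO IP 2 the calls of Mirg (edgeR adjusted p = 0.29) and Tug1 (0.051) were lost, and that of Mirg also without KO total 1, KO total 2 or KO IP 1. Meg3, from the same imprinted region as Mirg, stood at 429 and 998 CPM against 242, 458 and 415 CPM and overlapped (0.95 ± 0.55, edgeR adjusted p = 0.189), a difference that passed with the library number as a block (0.98, edgeR adjusted p = 3.95e-06).

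The non-coding genes with the largest called differences upward included AW112010, an interferon-inducible transcript, at 69.1 and 100.3 CPM against 9.48, 11.0 and 14.3 CPM (2.89 ± 0.25, edgeR adjusted p = 1.04e-05). Lppos, which runs opposite to Lpp, was 5.38-fold higher, and Dleu2, host of a microRNA cluster, 5.66-fold higher. Downward, Gm26917 in the ribosomal RNA repeat was called 28.5-fold lower, but its total RNA values of 106, 140.5 and 2016 CPM show that KO total 3 alone sets that size, and the call was lost without KO IP 2 (edgeR adjusted p = 0.113). Snhg14, the long host transcript of the Ube3a antisense region, stood at 10.6 and 9.74 CPM against 28.0, 25.9 and 20.8 CPM (-1.31 ± 0.26, edgeR adjusted p = 0.00150, lost without KO IP 2 at 0.051).

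The listed host transcripts of small nucleolar RNAs had only higher calls. These are spliced RNAs whose introns release snoRNAs and whose exons are translated little and decay quickly. Of 11 tested, 7 were higher and 0 lower, with a median log2 difference of 1.78. Snhg14 and Rian, both called lower above, were placed among the nuclear RNAs and do not count here. Snhg1, Snhg4, Snhg7, Snhg8, Snhg10 and Snhg16 were not found by name, so the direction holds for the listed hosts only. Gas5 stood at 139 and 142 CPM in the IP against 39.0, 42.4 and 41.7 CPM in total RNA (1.78 ± 0.24, edgeR adjusted p = 9.16e-05). Zfas1 stood at 36.5 and 35.6 CPM against 10.4, 10.7 and 12.3 CPM, and Snhg18 at 27.8 and 28.6 CPM against 6.24, 6.03 and 9.86 CPM. In these 3 hosts the IP libraries agreed closely and lay above every total library. Epb41l4aos was 6.09-fold higher. The snoRNA and scaRNA genes themselves took only 0.0025% and 0.0032% of IP counts and 0.0025% to 0.0042% of total RNA counts, from 23 and 128 counts in the IP.

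Small RNA genes had few counts. Of 14 microRNA loci tested, 2 were higher and 5 lower. A count at a hairpin locus does not separate the mature microRNA, its precursor and reads of the host gene, so the sequences below only show which loci are meant, with the seed (bases 2 to 8) in capitals. They are the RefSeq mature entries on GRCm38.p6, 8 of the 14 loci having one, and none of the seeds is shared.

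mmu-miR-99a-5p: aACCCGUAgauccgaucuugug
mmu-miR-1a-1-5p: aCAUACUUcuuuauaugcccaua
mmu-miR-3074-5p: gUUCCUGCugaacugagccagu
mmu-miR-5125: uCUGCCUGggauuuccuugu
mmu-miR-6999-3p: cUUCAGCUguccuccuuucugu
mmu-miR-6236: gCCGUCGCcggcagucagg

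Mir99a (chr16:77598936-77599000, plus strand) lies within Mir99ahg. It had 3 and 16 counts in the IP and 0, 1 and 0 in total RNA, a ratio of 87.3 with a counting interval of 13.9 to 3629, and its call was lost with DESeq2 (adjusted p = 0.0918). The host Mir99ahg itself was higher, at 18.2 and 22.6 CPM against 4.08, 2.47 and 3.64 CPM (2.62 ± 0.33, edgeR adjusted p = 6.97e-05), so locus and host were higher in the same libraries. The other higher locus, Gm22933, rested on 11 counts in KO IP 2.

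The 5 lower loci each had few counts in the IP, and without KO IP 2 none kept its call in edgeR. Mir3074-1, opposite to 2010111I01Rik and within Fancc, had 16, 14 and 17 counts in total RNA and 0 in both IP libraries, at least 3.41-fold lower (edgeR adjusted p = 0.00889, and 0.193 without KO IP 2). Mir1a-1, hairpin of a muscle microRNA, had 10, 12 and 8 counts against 0 and 0, at least 2.18-fold lower, a call lost with the library number as a block (edgeR adjusted p = 0.0764) and without any 1 of the 5 KO libraries. Mir1b, within Mib1, had 17, 11 and 11 counts against 0 and 0. Mir5125, within Srrm2, had 75, 95 and 55 counts against 2 and 5 (-2.74 ± 0.60, edgeR adjusted p = 0.00357, and 0.174 without KO IP 2). Mir6999, within Dgkz, had 9, 23 and 10 counts against 0 and 1, lost with the block (edgeR adjusted p = 0.0829) and without KO total 2, KO IP 1 or KO IP 2. Most counts of the class came from Mir6236, a locus with ribosomal RNA sequence, with 1226 of 1385 and 5890 of 6967 in the IP and 5768 of 7984, 8768 of 11992 and 14673 of 19402 in total RNA. Gm23935 held 118 and 922 counts in the IP and 1816, 2704 and 4369 in total RNA, a log2 difference of -1.11 ± 0.42 (edgeR adjusted p = 0.0537, and 0.00242 with the block). Mir6236 stood at 1177 and 1220.4 CPM in the IP and 692, 866 and 1722 CPM in total RNA. It overlapped between the groups (0.13, edgeR), and it passed only with the block (0.63, edgeR adjusted p = 0.00381).

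The mRNAs of the contractile apparatus had mostly lower calls. Over all genes 17.7% were higher and 18.8% lower, the shares to set beside every list of genes and markers here. Of 32 thick and thin filament genes, 18 were lower and 2 higher (Tcap and Tpm3), with a median log2 difference of -1.28 (13 lower and 0 higher without KO IP 2). The fast myosin heavy chain Myh4 stood at 15362 and 10654 CPM in the IP against 77383, 65317 and 67252 CPM in total RNA, 5.38-fold lower (-2.43 ± 0.37, edgeR adjusted p = 0.000236). Myh1, the other fast myosin heavy chain, was 9.20-fold lower, the myosin-binding gene Mybph 9.90-fold and troponin C Tnnc2 7.23-fold. Skeletal actin Acta1 stood at 27834 and 20912 CPM against 58678, 48177 and 64411 CPM (-1.23 ± 0.40, edgeR adjusted p = 0.0286), a call lost without KO total 1, KO total 3, KO IP 1 or KO IP 2 (edgeR adjusted p from 0.0606 to 0.211). For all of these the IP libraries lay below every total library. Tnnt3, Tpm1, Mylpf and the glycolytic enzyme Aldoa, all among the most counted genes, differed by -1.34, -1.84, -1.74 and -1.43. The calls of Tnnt3, Mylpf and Aldoa were lost without KO IP 2 (edgeR adjusted p = 0.0736, 0.0907 and 0.181), as was that of Tpm3 (0.136).

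Some abundant muscle mRNAs did not follow. Tcap, the titin cap of the Z disc, stood at 7087 and 8023 CPM in the IP against 3562, 2744 and 4432 CPM, 2.11-fold higher (1.08 ± 0.27, edgeR adjusted p = 0.00615, lost without KO IP 2 at 0.0656). Tpm2, a tropomyosin, stood at 12743 and 13393 CPM against 11336, 11958 and 15774 CPM, a log2 difference of 0.01 ± 0.29 that flips below 0 in 8 alternatives, among them DESeq2 (-0.04). The calcium-store protein Casq1 (0.25 ± 0.29) and the calcium buffer Pvalb (-0.43 ± 0.33, which flips to 0.02 by library size) also missed the threshold. Within calcium handling 10 of 22 genes were lower and 2 higher (median -0.30). By library size alone 7 were lower and 5 higher (median 0.14). The calcium pump Atp2a1 was 5.87-fold lower, the voltage sensor Cacna1s 9.20-fold and its partner Stac3 3.84-fold.

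Very long mRNAs were the list with the highest share of lower calls after the muscle fibre markers. Of 25 giant transcripts 18 were lower and 1 higher, with a median log2 difference of -1.06. Nebulin, Neb, which spans the thin filament, stood at 1664 and 1230 CPM against 6477, 5120 and 4972 CPM (-1.93 ± 0.26, edgeR adjusted p = 0.000107). The cytolinker Plec was 3.21-fold lower and the ubiquitin ligase Herc1 3.71-fold. The exception was Ahnak, a giant scaffold protein of membranes, at 519 and 614 CPM against 348, 314 and 319 CPM (0.79 ± 0.19, edgeR adjusted p = 0.00452, and 0.0703 without KO IP 2). It is the only one of the list whose called difference was upward. Without KO IP 2, 10 of the 25 were still called lower.

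**Figure D2:**
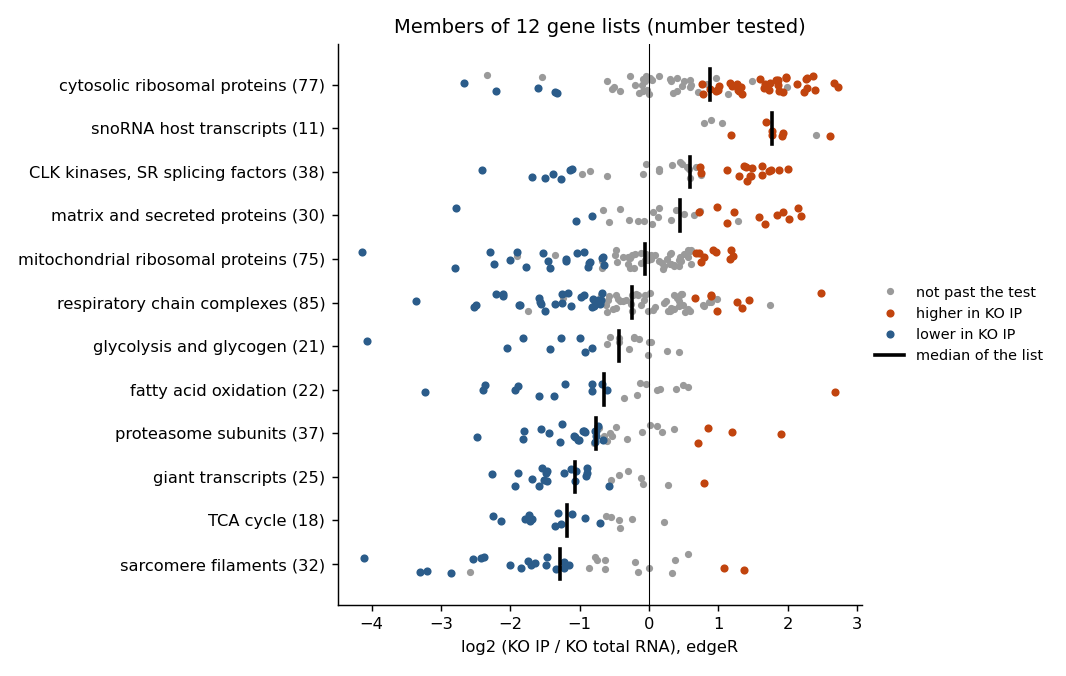
Log2 difference (KO IP minus KO total RNA) of each tested member of selected gene lists, coloured by call, with a bar at the median of the list. Among the calls, contractile, giant, citric acid cycle and proteasome genes have mostly lower ones, and cytosolic ribosomal protein genes and the listed snoRNA hosts mostly higher ones.

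Energy metabolism was split by pathway. In the citric acid cycle 12 of 18 genes were lower and 0 higher (median -1.19). Mdh1, the cytosolic malate dehydrogenase of the shuttle to the cycle, stood at 225 and 131 CPM against 764, 818 and 932 CPM, 4.77-fold lower, and the fumarase Fh1 at 104 and 64.6 CPM against 353, 351 and 384 CPM. In glycolysis and glycogen metabolism 8 of 21 were lower and 0 higher (median -0.43), and 3 were lower without KO IP 2. By library size alone 5 glycolysis and glycogen genes were lower and 2 higher (median -0.0022). Gapdh stood at 42.2 and 13.3 CPM against 384, 321 and 517 CPM, 16.7-fold lower (-4.06 ± 0.47, edgeR adjusted p = 3.83e-05). Gapdh has many processed pseudogenes, and its counts hold only the reads placed at this locus alone.

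In fatty acid oxidation 12 of 22 genes were lower, among them the acyl-CoA dehydrogenase Acadvl (9.35-fold) and the electron transfer flavoprotein Etfa (5.14-fold). By library size alone 8 were lower and 6 higher (median -0.22). In the main fit the 1 higher gene was Lpl, the lipase that frees fatty acids from lipoproteins in the capillary. It stood at 1370 and 2399 CPM against 256, 339 and 287 CPM (2.68 ± 0.35, edgeR adjusted p = 8.27e-05). Lpl is expressed by fat as well as muscle. Without KO IP 2 the lower count fell to 7.

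Respiratory chain subunits went both ways: 26 of 85 were lower and 8 higher, with a median of -0.24. Uqcrc2 of complex III stood at 172 and 113 CPM against 740.3, 813 and 824 CPM (-2.49 ± 0.25, edgeR adjusted p = 1.79e-05). Ndufs1 of complex I was 4.28-fold lower and Cox7c of complex IV 10.3-fold. Cytochrome c, Cycs, went up, at 61.4 and 59.5 CPM against 10.8, 12.5 and 9.04 CPM (2.48 ± 0.42, edgeR adjusted p = 0.000521). The higher count of this list moved a great deal: it was 29 with the library number as a block, 30 by library size alone, 16 without KO total 3 and 1 without KO IP 2, against 26, 17, 21 and 15 lower. The 75 mitochondrial ribosomal protein genes had 9 higher and 20 lower (median -0.05), 19 and 18 with the block, and 2 and 8 without KO IP 2.

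Proteasome subunits were mostly lower, 20 of 37, with a median of -0.76 (10 lower without KO IP 2). By library size alone 11 were lower and 6 higher (median -0.31). The catalytic subunit Psmb5 stood at 11.5 and 8.50 CPM against 43.0, 41.5 and 72.7 CPM, 5.56-fold lower, and the base subunit Psmd2 was 2.94-fold lower. In the main fit the 4 higher members were Psmd11, Psmd7, Psmb8 and Psmb10. Psmb8 and Psmb10 are interferon-inducible subunits of the immunoproteasome, which immune cells express. Psmb8 stood at 22.1 and 32.3 CPM against 5.16, 6.52 and 10.9 CPM (1.90 ± 0.32, edgeR adjusted p = 0.000517), and Psmb10 at 38.4 and 46.8 CPM against 14.5, 15.2 and 27.0 CPM. Both lost the call without KO IP 2 (edgeR adjusted p = 0.0508 and 0.116).

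Cytosolic ribosomal protein mRNAs, among the shortest and most translated of a cell, were the main mRNA group with more RNA in the IP. Of 77 tested, 37 were higher and 5 lower, with a median log2 difference of 0.88. Rpl13 stood at 47.0 and 44.8 CPM in the IP against 4.56, 7.51 and 9.39 CPM in total RNA, 6.37-fold higher (2.67 ± 0.30, edgeR adjusted p = 3.41e-05). Rpl39 was 5.26-fold higher, Rpl27a 4.82-fold and Rps18 3.83-fold, and in these 4 the 2 groups did not overlap. Ribosomal protein genes also have many pseudogenes, so their counts cover only part of their reads.

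Translation factors showed no common direction (9 of 62 higher and 16 lower, 14 and 19 with the block, 3 and 9 without KO IP 2). The main shares higher and lower, 14.5% and 25.8%, stood beside 17.7% and 18.8% over all genes. The 2 close relatives of the helicase that unwinds mRNA leaders went opposite ways. Eif4a1 stood at 79.7 and 83.3 CPM against 19.4, 20.3 and 20.7 CPM (2.02 ± 0.19, edgeR adjusted p = 1.39e-05). Eif4a2, the form abundant in muscle, stood at 43.2 and 31.9 CPM against 232, 258 and 225 CPM (-2.71 ± 0.26, edgeR adjusted p = 1.59e-05). Their partner, the scaffold Eif4g1, was 5.53-fold lower, and the start-codon factor Eif1 3.77-fold higher.

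Splicing regulators leaned upward. Of 38 CLK kinases and SR-type splicing factors, 16 were higher (42.1%) and 7 lower (18.4%), with a median of 0.59. The lower share was near the 18.8% of all genes, and the higher share stood beside 17.7%. Clk1, a kinase that phosphorylates SR proteins and is kept partly as unspliced nuclear RNA in many cells, stood at 229 and 292 CPM against 70.3, 90.5 and 53.7 CPM (1.87 ± 0.31, edgeR adjusted p = 0.000378). Clk4 was 3.39-fold, Srsf9 4.04-fold and Srsf3 3.11-fold higher. Srsf2 was among the lower ones, at 23.0 and 8.08 CPM against 72.4, 73.7 and 60.5 CPM. It overlaps Mettl23 and Mfsd11 on the opposite strand. Without KO IP 2 the counts were 7 higher and 1 lower, and Srsf2 was not called (edgeR adjusted p = 0.0625). The 25 hnRNP genes had 2 higher and 8 lower, and 4 lower without KO IP 2: Hnrnpu was 2.67-fold higher and Hnrnpa2b1 3.61-fold lower.

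Of 13 tested members of the IGF axis, on which IMP2 is known to act, 4 were higher (Igf2, Igf1, Igfbp4 and Igfbp6), 6 were lower (Igf1r, Igf2r, Irs1, Irs2, Igfbp5 and Igfbp7) and 3 did not pass, with a median of -0.33. The calls numbered 3 higher and 3 lower without KO IP 1, and 2 and 4 without KO IP 2. Of the ligands, Igf2 (chr7:142650766-142666816, minus strand) stood at 264 and 415 CPM in the IP and 74.7, 148 and 88.6 CPM in total RNA, 3.29-fold higher (1.72 ± 0.46, edgeR adjusted p = 0.00972). Both IP libraries lay above all 3 total libraries, and the call was lost without KO IP 2 (edgeR adjusted p = 0.153). Igf1 stood at 122 and 135 CPM against 29.0, 24.9 and 48.8 CPM (1.91 ± 0.30, edgeR adjusted p = 0.000317). Igfbp4, a binding protein that holds IGFs outside the cell, was 4.06-fold higher.

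Of the receptors and their substrates, the clearance receptor Igf2r stood at 66.2 and 40.2 CPM against 182, 169 and 138 CPM (3.17-fold). The insulin receptor substrate Irs1 stood at 10.6 and 4.77 CPM against 74.5, 50.6 and 99.7 CPM, 11.8-fold lower (-3.56 ± 0.45, edgeR adjusted p = 6.41e-05). Irs2 had 107, 87 and 55 counts in total RNA and 0 in both IP libraries, at least 18.1-fold lower.

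Of 15 tested mRNAs that earlier work reported as bound by IMP proteins, 4 were higher (Igf2, Actb, Cd44 and Ucp1) and 5 lower (Ccnd1, Ppara, Hmga1, Lamb2 and Ccng1) in the KO IP, a median of -0.68. Leaving out KO IP 2 gave 1 higher and 3 lower, and Ucp1 lost its call without any 1 of the 5 KO libraries. Actb, cytoplasmic actin, stood at 1014 and 1655 CPM against 230.4, 251 and 327 CPM, 4.96-fold higher (2.31 ± 0.36, edgeR adjusted p = 0.000295). Cd44, a hyaluronan receptor, was 2.34-fold higher, a call lost without KO IP 2 (edgeR adjusted p = 0.371). Ccnd1, the G1 cyclin, stood at 3.84 and 2.28 CPM against 13.3, 18.0 and 20.2 CPM, 6.44-fold lower, and Ppara had 40, 33 and 30 counts in total RNA against 0 and 1 in the IP.

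**Figure D3:**
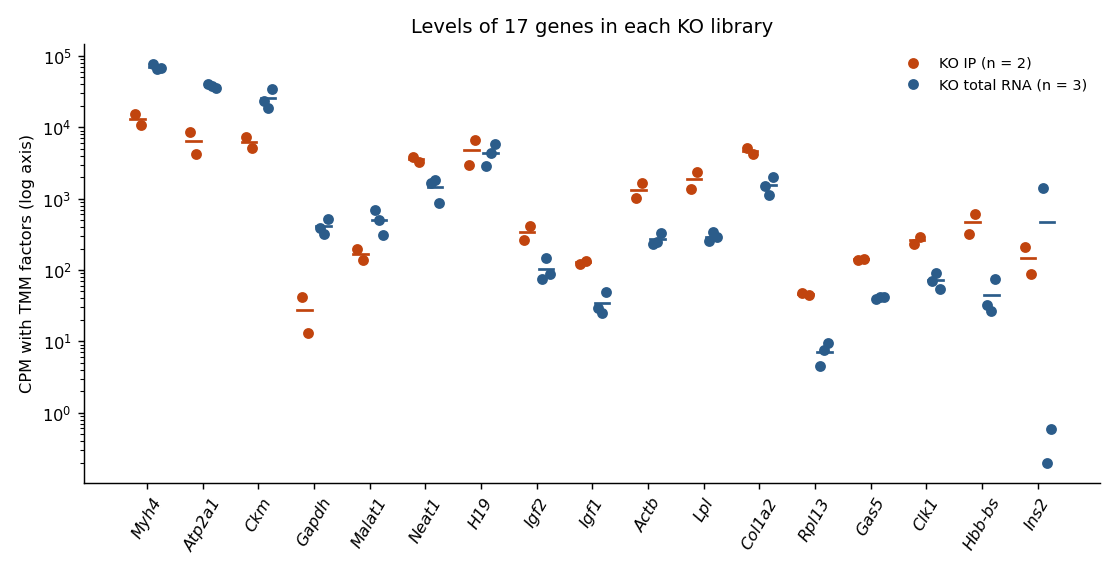
CPM on a log axis in each KO library for genes of each role, with IP and total RNA libraries as separate points. Igf2, Actb and the snoRNA host Gas5 lie above total RNA in both IP libraries, and Myh4, Ckm and Gapdh lie below it.

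Of 30 genes of the extracellular matrix, 11 were higher and 3 lower in the IP, with a median of 0.45, and 16 did not pass (by library size alone 17 were higher and 1 lower). Bgn, a small matrix proteoglycan, stood at 880.1 and 1093 CPM against 206, 175 and 286 CPM (2.15 ± 0.33, edgeR adjusted p = 0.000247). Fibrillin Fbn1 was 4.58-fold and collagen Col6a1 4.08-fold higher, while elastin Eln was 6.87-fold lower. Fibroblasts are the main source of such mRNAs in muscle.

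Markers of other cells moved with this contrast. Summed CPM of 11 fast muscle fibre markers was 110322 and 81462 in the IP against 254999 to 342531 in total RNA, with 9 of 11 lower and 0 higher. Summed CPM of 6 fibroblast markers was 11473 and 10137 against 3912 to 6739 (4 of 6 higher), led by Col1a1 (1.23 ± 0.29) and Col1a2 (1.59 ± 0.27). Erythroid markers summed to 483 and 778 CPM against 47.7 to 120.5 (4 of 5 higher, 2 without KO IP 2). Hba-a1, an alpha-globin with a near-identical copy, was 7.91-fold higher, while the haem enzyme Alas2 was the 1 lower marker, a call lost with the block, in limma-voom, by library size alone and without KO total 2, KO total 3, KO IP 1 or KO IP 2. Mast cell markers summed to 76.8 and 80.6 CPM against 19.2 to 22.1 (4 of 5 higher, 2 without KO IP 2, and 1 lower with the block). The call of Hba-a1 was lost without KO IP 2 (edgeR adjusted p = 0.0538). In none of these 4 sets did the summed level overlap. In bulk tissue, fewer cells of a type and less RNA per cell cannot be told apart, and the part of cell makeup in the lists above was not tested.

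Among other marker sets, 4 of 7 endothelial markers were higher (2 without KO IP 2), Kdr with 163 and 396 CPM against 80.7, 98.7 and 69.0 CPM (1.77 ± 0.30), while Pecam1, Cdh5 and Vwf were at or below 0. Macrophage markers had 1 of 7 called higher (14.3%, near the 17.7% of all genes), and 4 with the library number as a block. Their summed level of 379 and 414 CPM did not overlap the 132 to 211 CPM of total RNA. Summed levels did overlap for endothelial (750 and 1240 CPM against 626 to 826) and tendon markers (1086 and 475 against 268 to 695). So did those of smooth muscle and pericyte (792 and 880 CPM against 727 to 1032) and satellite cell markers (7.68 and 32.3 against 13.9 to 18.1). Tendon markers had 2 of 7 called higher (0 without KO IP 1), smooth muscle and pericyte markers 3 of 6 (1 without KO IP 2), and satellite cell markers 1 of 4 (Vcam1, which other cells express too, lost without KO total 1, KO total 2 or KO IP 2).

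Brown fat markers gave the largest estimates with the least certainty. Ucp1, the uncoupling protein of brown fat, had 44 and 97 counts in the IP and 1, 1 and 2 counts in KO total RNA, a ratio of 162 with a counting interval of 61.9 to 603. Cidea, a lipid droplet protein, stood at 75.8 and 24.4 CPM against 1.92, 2.17 and 2.35 CPM, and the lipoprotein gene Apoc1 at 46.1 and 13.9 CPM against 0.480, 0.296 and 0.704 CPM. Both IP libraries lay above every total library. The calls (edgeR adjusted p = 0.0291, 0.0335 and 0.0437) were all lost in limma-voom and whenever any 1 of the 5 libraries was left out. In WT total RNA the same Ucp1 varied from 0.143 to 225 CPM between libraries. DESeq2 gave these 3 genes no adjusted p. With the block 3 of 4 brown fat markers were higher and 1 lower. Of 7 general fat markers 6 had positive estimates (median 0.79), 1 was called higher (Retn) and 1 lower (Plin1), with 4 higher and 1 lower under the block.

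**Figure D4:**
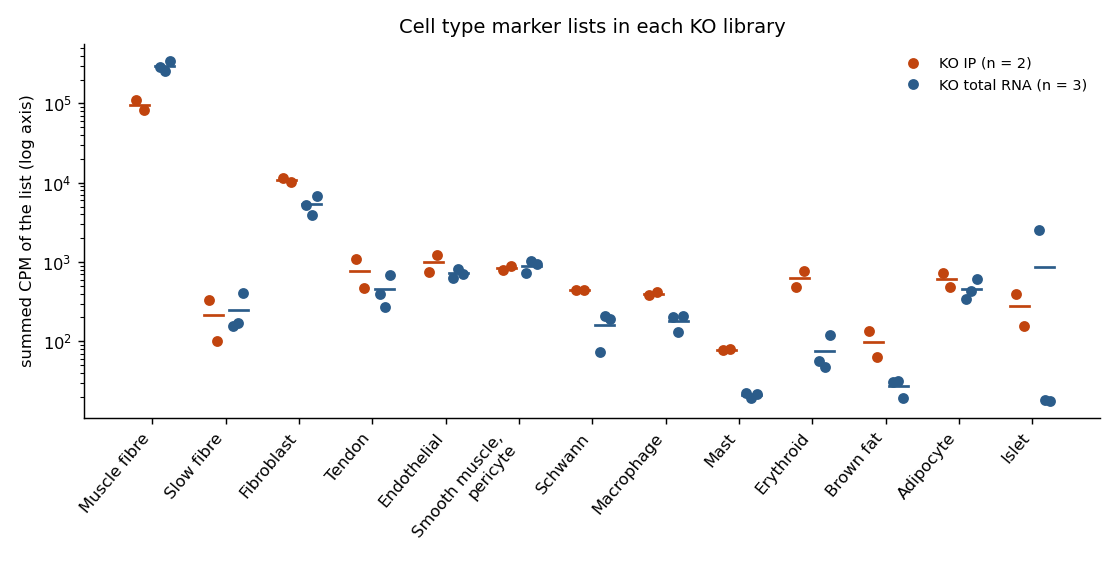
Summed CPM of selected marker lists in each KO library, on a log axis, with IP and total RNA libraries as separate points. Muscle fibre markers are lower in both IP libraries, fibroblast, erythroid and mast cell markers are higher, and islet markers are high in KO total 1 and in both IP libraries.

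Islet genes need the single libraries. Ins2, which encodes insulin, stood at 211 and 87.0 CPM in KO IP 1 and 2, at 1396 CPM in KO total 1, and at 0.198 and 0.587 CPM in KO total 2 and 3. The counts were 220 and 420 in the IP and 11628, 2 and 5 in total RNA. With all libraries the log2 difference was -1.68 ± 1.84 (edgeR adjusted p = 0.502). Without KO total 1 it became 8.53 (edgeR adjusted p = 0.000142), with the block 0.89 and in limma-voom 4.63. The direction therefore turns on KO total 1 and, with all libraries kept, on the fit.

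The same holds across the islet list. Summed CPM of its 17 members was 400.2 and 157 in the KO IP and 2538, 18.4 and 17.7 in KO total RNA. In WT that sum was 53.8 and 378 CPM in the IP against 9.44, 16.6 and 14.0 CPM in total RNA. The WT median log2 difference was 5.95, with 3 members higher and 0 lower. In the KO contrast with all libraries 0 of 16 tested were higher in edgeR (0 also at an unadjusted p under 0.05, and 0 in DESeq2 and limma-voom). In edgeR 1 was lower and all 16 estimates were negative, with a median of -1.85. In limma-voom the median was 1.10. Without KO total 1, 9 of 13 tested were higher and 1 lower, with a median of 7.25. Ins1, Gcg, Sst, Ppy and Iapp, the other islet hormones, were all detected in both IP libraries and at or near 0 in KO total 2 and 3. The 1 lower gene was Abcc8, the sulphonylurea receptor, with 8 and 12 counts in the IP against 175, 140 and 85 in total RNA (-1.95 ± 0.55, edgeR adjusted p = 0.0129, and 0.387 without KO IP 2). Markers of acinar pancreas were near the floor, with summed CPM of 0.960 and 1.04 in the IP and 9.84, 0.790 and 0.587 in total RNA. Leaving out KO total 1 left 1872 higher and 2165 lower genes overall.

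Across all mRNAs the difference ran with coding length. Sorted into 5 equal groups by coding length, from a median of 516 bases to one of 3514 bases, the median log2 difference was 0.33, 0.18, 0.09, -0.04 and -0.30. In the shortest group 26.7% of genes were higher and 12.4% lower. In the longest group 9.27% were higher and 28.4% lower. Length also goes with expression level, and by level in WT total RNA, which is no part of the contrast, the medians ran from 0.51 in the least to -0.31 in the most expressed group. Within each of the 5 level groups the shortest coding group still lay above the longest, by 0.77 against 0.24 in the least expressed and 0.02 against -0.60 in the most expressed. GC content showed a smaller trend, from -0.11 in the lowest to 0.23 in the highest group.

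**Figure D5:**
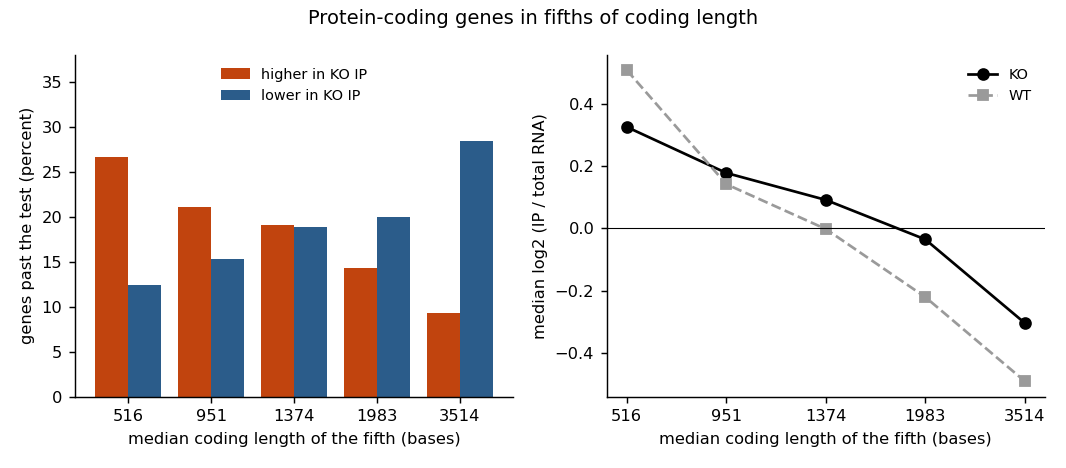
Median log2 difference (KO IP minus KO total RNA) in 5 equal groups of mRNAs sorted by coding length in bases, with the WT comparison drawn beside it. The KO medians run from 0.33 in the shortest to -0.30 in the longest group.

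Genes that overlap another gene on the opposite strand differed as well. Reads that fitted more than 1 gene made up 5.63% and 6.03% of the IP libraries and 3.57% to 3.95% of the KO total libraries. Among mRNAs with no exon overlapped on the other strand 17.2% were lower (median 0.09, 9607 genes). Among the 283 with over 30% of their exonic bases overlapped 31.8% were lower (median -0.40). Whether the counting used strand is not given in the sources used here, and without strand, reads of a gene and its partner cannot be told apart. Among the lower genes named above, Gapdh, Anxa11, Snw1, Eif4a2, Acadvl and Srsf2 have a partner on the opposite strand. The part of overlap in their calls was not tested.

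The same antibody on WT muscle recovered a largely overlapping set of genes. In WT, 2534 genes were higher (17.6%) and 2791 lower (19.4%) in the IP than in total RNA. Of the genes higher in the KO IP 1544 were also higher in the WT IP (60.5% of the KO and 60.9% of the WT genes), and of the lower genes 1924 were shared (71.3% and 68.9%). Only 3 genes were higher in KO and lower in WT, and 2 the reverse. The 2 comparisons share no library, and their log2 differences over 14399 genes had a Pearson r of 0.64, given as a description, since genes of a library share its depth and scaling.

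The difference between the genotypes was tested as an interaction, and 1 gene (0.00694%) passed. Prps1l3, a phosphoribosyl pyrophosphate synthetase relative, had 112, 114 and 100 counts in KO total RNA and 0 and 1 in the KO IP, while its WT log2 difference was -0.76. The interaction was -5.28 ± 0.71 (edgeR adjusted p = 0.0415). At an unadjusted p under 0.05 there were 1703 genes. The count was 0 by library size alone and without any 1 KO library, 263 with no filter on low counts, and 147 with the library number as a block, so it depends on the fit.

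Among the lists, CLK kinases and SR-type factors had 16 higher and 7 lower in KO and 2 higher and 13 lower in WT, yet 0 of 38 passed the interaction test in edgeR. At an unadjusted p under 0.05 there were 21 of them, with a median interaction of 0.98. Summed CPM of the list was 3946, 3981 and 8665 in WT total 1, 2 and 3, against 3382 and 2831 in the WT IP. Summed muscle fibre markers, which include Acta1, stood at 228868, 240507 and 129063 CPM in the same WT total libraries. WT total 3 thus stood apart in both lists, and no fit left out a WT library. Clk1 was 1.87 in KO and -0.01 in WT (edgeR interaction adjusted p = 0.342). Cytosolic ribosomal protein genes had 37 higher and 5 lower in KO and 55 and 3 in WT. Acta1 was -1.23 in KO and -0.03 in WT (edgeR interaction adjusted p = 0.419), and Igf2 was 1.72 in KO and 2.82 in WT (edgeR interaction adjusted p = 0.515). H19 was 0.14 in KO and 1.22 in WT (edgeR interaction adjusted p = 0.481). Neither of these known IMP2 targets differed between the genotypes beyond the spread of the libraries, which at 2 IP libraries a genotype does not show that they are alike.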

How the data were processed

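RNA-seq gene counts were deposited by the authors, 1 file per library. The tools named in the submitters' processing notes are STAR and HTSeq, and the builds mm10 and GRCm38; no version, annotation release or strand setting is given in the sources used here. The deposited values are raw counts, with summary rows (no feature, ambiguous, not unique) that were left out of all totals. Gene names, classes and lengths came from GENCODE M21 (42548 of 43629 genes matched), overlaps from bedtools 2.31.1, and microRNA sequences from RefSeq. All 37 mitochondrial genes were at 0 in every library.

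All 10 libraries were fitted as 4 groups in edgeR 4.0.16 (R 4.3.3) with filterByExpr, TMM scaling and the quasi-likelihood test. P-values were adjusted by Benjamini-Hochberg over all 14399 genes, and called means an adjusted p under 0.05. The fit was also run on simulated counts with far fewer changed genes than were called here. That run checks the code and does not measure the error rate of this contrast. CPM used TMM-scaled library sizes, and shares used gene counts unscaled, with exact 95% binomial intervals. SE of a log2 difference came from the F statistic.

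Members and lists were chosen with earlier results of these data known. Named genes were the IMP and IGF genes, the largest called differences among genes at 10 CPM (mRNA) or 5 CPM (other classes) whose groups did not overlap, up to 4 genes of smallest p per list, and the 10 most counted genes. Outside that rule, Ahnak, Cycs, Igfbp4 and the other called IGF axis members, Psmb8, Psmb10, Psmd7, Psmd11, Srsf2, Tpm3, Xist, Rian, Alas2, Retn, Plin1, Vcam1, the other islet hormones and endothelial markers, the called IMP-bound genes, and Mir1a-1, Mir1b, Mir6236, Mir6999 and Gm22933 were named after their values were seen.

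Deviations of same-numbered IP and total libraries had r of 0.141 and 0.169 in KO, and 0.124 and 0.109 in WT. With 2 IP libraries a genotype the IP deviations are mirror images, and KO IP 2 with KO total 1 gave -0.141. These r are therefore not independent and cannot settle whether the libraries are paired. The labels do not say what the number marks, so the block was run as an alternative, and 1 marker list is not reported here. Other alternatives were library-size and DESeq2 (1.42.0) scaling, the DESeq2 test, limma-voom (limma 3.58.1), other filters, the 5 KO libraries alone, and leaving out each KO library.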

Additional observations from a re-analysis of the deposited data

Results flagged for a closer look

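Prps1l3 was picked out because its IP against total RNA difference differed between the genotypes in a test of that difference. The KO minus WT value was -5.28 ± 0.71 on the log2 scale (edgeR quasi-likelihood interaction test, Benjamini-Hochberg adjusted p = 0.0415). It rests on 0 and 1 counts in the KO IP libraries against 112, 114 and 100 in KO total RNA. The call was lost without any 1 of the KO libraries and by library size alone. Prps1l3 overlaps Mipol1 on the same strand.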

How the results depend on the processing

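Genes higher and lower in the KO IP numbered 2551 and 2700, and 4267 and 1439 by library size alone. In that setting mitochondrial ribosomal protein genes had 27 higher and 11 lower (median 0.40). Translation factors then had 17 and 10 (0.27), and hnRNP genes 5 and 4 (0.30). Leaving out 1 KO library gave 934 to 2243 higher and 1214 to 2437 lower genes, the lowest without KO IP 2. Other scalings, tests and filters, and the KO libraries alone, stayed within 1.5 times both counts, from 2370 to 2678 higher and from 2424 to 3055 lower. With the replicate block there were 2542 higher and 2729 lower genes; among the genes named, the block ended the calls of Igkc, Mir1a-1 and Mir6999 and added Igf2bp2, Meg3, Mir6236 and Gm23935. The interaction count of 1 became 0 by library size, 263 with no filter on low counts, 147 with the replicate block, and 0 to 0 over the leave-one-out fits. The difference in share of counts (IP minus total, percentage points), without the 10 most abundant genes, went from 0.0707 to 0.045 for antisense RNA, from 0.0246 to 0.00143 for pseudogenes and from -0.00039 to -0.00136 for snoRNAs; for snRNAs it was 0.00054, -6.95e-06 by symbol pattern and -6.79e-05 to 0.00116 over the leave-one-out values. The 7 named genes that changed sign had small or library-bound differences. Over the leave-one-out fits Gm42418 ranged from -0.066 to 0.34 (-0.045 without KO IP 1), H19 from -0.57 to 0.59 (-0.083 without KO total 1), Mir6236 from -0.11 to 0.62 (-0.0088 without KO total 2), Tpm2 from -0.084 to 0.17 (-0.052 and -0.044 without KO total 2 or KO IP 2) and Ins2 from -2.43 to 8.53. Tpm2 was -0.036 in DESeq2 and with its size factors, -0.030 with no filter and -0.046 in the KO libraries alone. Ins2 was 4.63 in limma-voom and 0.89 with the block, Xist 1.01 in limma-voom and Pvalb 0.016 by library size. In an alternative chosen after seeing the data, the KO libraries alone without KO total 1 gave -0.11 for Gm42418, -0.14 for H19, 8.47 for Ins2, -0.15 for Mir6236, -0.13 for Tpm2, and 2071 higher and 2423 lower genes. The cause was not tested. Of 126 named genes tested 115 passed, 83 of these in every alternative, most others losing the call only without KO IP 2. KO IP 1, at 917462 counts, limits what can be seen below about 2.88 CPM.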
